A study of Bos taurus with 20 samples.

Results

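The interferon regulatory factors (IRF) are a small family of DNA-binding transcription factors, and 8 of them (IRF1, IRF2, IRF3, IRF4, IRF5, IRF7, IRF8 and IRF9) were chosen by symbol among the 37063 gene identifiers of the count tables. The question addressed was how IRF7 compared with its relatives across cows and with the birth weight (BW) of the calf. RNA had been sequenced from maternal blood of 20 female recipients at 63 days of gestation, with 1 library per cow and no other group, treatment or time point. All recipients carried a female fetus from a transferred embryo, made in vitro with an oocyte of a beef donor. The study describes such fetuses as genetically foreign to the recipient. The methods of the study call the recipients lactating dairy cows, whereas one of its tables lists them as Angus, and the breed was therefore not used here. Each cow is named below by the BW of her calf, so that the 30 kg recipient is the one whose calf weighed 30 kg at birth. Calf BW was 45.0 ± 10.1 kg (SD, n = 20). The main tests of BW used 19 cows and left out the 72.5 kg recipient (43.5 ± 7.97 kg, SD, n = 19).

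IRF proteins bind interferon-stimulated response elements and related sites through a conserved domain at their amino terminus. Sensors of microbial nucleic acids activate IRF3, IRF5 and IRF7 through phosphorylation, and these then induce type I interferons. Interferon signals through its receptor to a complex that binds DNA through IRF9 and switches on the interferon-stimulated genes, IRF7 among them. IRF4 and IRF8 act mainly with partner proteins in B cells, plasma cells, monocytes and dendritic cells, and IRF2 is best known as an antagonist of IRF1. In ruminants this system is also known for its response to interferon tau, the signal by which the early conceptus is recognised.

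Total counts ranged from 24632077 to 39892111 per cow, with a median of 33412740. No library was a copy of another, since the lowest chi-square per degree of freedom was 14.7 over the 190 pairs of libraries. Markers of the main blood cells were present, and the most abundant of them was CSF3R, the receptor of granulocyte colony-stimulating factor in neutrophils, at a median of 1841 CPM (counts per 1e6 counts). The 30 kg recipient stood apart from the others in interferon-stimulated genes. The mean z-score of 22 such genes (the target score) was 3.05 in this cow and between -1.09 and 0.76 in the other 19 cows, so results are also given without her. The labels name no sequencing batch, and no comparison within batches was made.

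IRF1, the family member that interferon gamma induces, was listed at 0 counts in all 20 cows, and so it has no level or slope here. A count of 0 at these depths did not settle whether IRF1 was expressed. In the gene table its span lies inside that of RAD50, a DNA repair gene with 2531 to 4987 counts per cow. All 3 identifiers whose spans lie inside RAD50, namely IL5, IRF1 and a non-coding RNA, had counts in 0 cows, whereas 16.8% of 21666 protein-coding identifiers were at 0 in every cow. Whether the overlap had a part in this was not tested. The spans of IRF9 and IRF2 partly overlap those of RNF31 (1687 to 2709 counts per cow) and of an unnamed protein-coding gene (234 to 1208 counts). The remaining 7 of the 8 members had at least 445 counts in every cow and passed the filter of at least 10 counts in at least 5 cows, as did 16206 genes in all. Transcript lengths were not used here, so levels are compared between cows and not between genes.

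IRF7 (Entrez 100125591) was the member whose level differed most among cows. It ranged from 14.8 CPM in the 72.5 kg recipient, through a median of 25.8 CPM, to 72.5 CPM in the 30 kg recipient. The next highest value was 34.1 CPM, in the 39 kg recipient, so a single cow stood far above the rest. The coefficient of variation (CV) was 42.5% over 20 cows and 21.3% without the 30 kg recipient. Against the 2152 genes of like mean level, the SD of IRF7 on the log2 scale lay at percentile 96.4, and at percentile 91.3 without that cow. Each against genes of its own mean level, IRF5 lay at 88.6 (88.1 without that cow), IRF4 at 83.8 (84.2) and IRF8 at 83.3 (84.0). IRF9 lay at 82.1 (63.4), IRF3 at 27.1 (2.22) and IRF2 at 20.7 (21.1). A high spread for its level was thus not particular to IRF7.

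The signalling relatives of IRF7 had lower CVs. IRF3 (Entrez 516979), the constitutively made factor that TBK1 activates, ranged from 107 CPM through a median of 116 CPM to 145 CPM, with a CV of 6.73%. Its highest value also came from the 30 kg recipient, and its CV was 3.98% without her. IRF9 (Entrez 509855), the DNA-binding subunit of the complex that type I interferon activates, ranged from 173 CPM (72.5 kg calf) through 214 CPM to 311 CPM (30 kg calf). The lowest and highest cows for IRF9 were thus the same individuals as for IRF7, while its CV of 13.6% was below that of IRF7. IRF5 (Entrez 615340), which acts downstream of endosomal Toll-like receptors, ranged from 262 CPM (56 kg calf) through 340 CPM to 461 CPM (50 kg calf), with a CV of 14.3%.

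Among the lineage factors, IRF8 (Entrez 614909) ranged from 86.5 CPM (56 kg calf) through 115 CPM to 150 CPM (43 kg calf). IRF4 (Entrez 506141) ranged from 78.0 CPM (32 kg calf) through 105 CPM to 131 CPM (43 kg calf). Their CVs were 13.3% and 13.4%, and neither had its extremes in the 30 kg and 72.5 kg recipients. IRF2 (Entrez 337916) was the steadiest member, at 193 CPM (47.4 kg calf), 214 CPM and 234 CPM (53 kg calf) for the lowest, median and highest cow, with a CV of 5.61%. In whole blood, fewer cells of a type and less RNA per cell cannot be told apart in any of these levels.

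**Figure D1:**
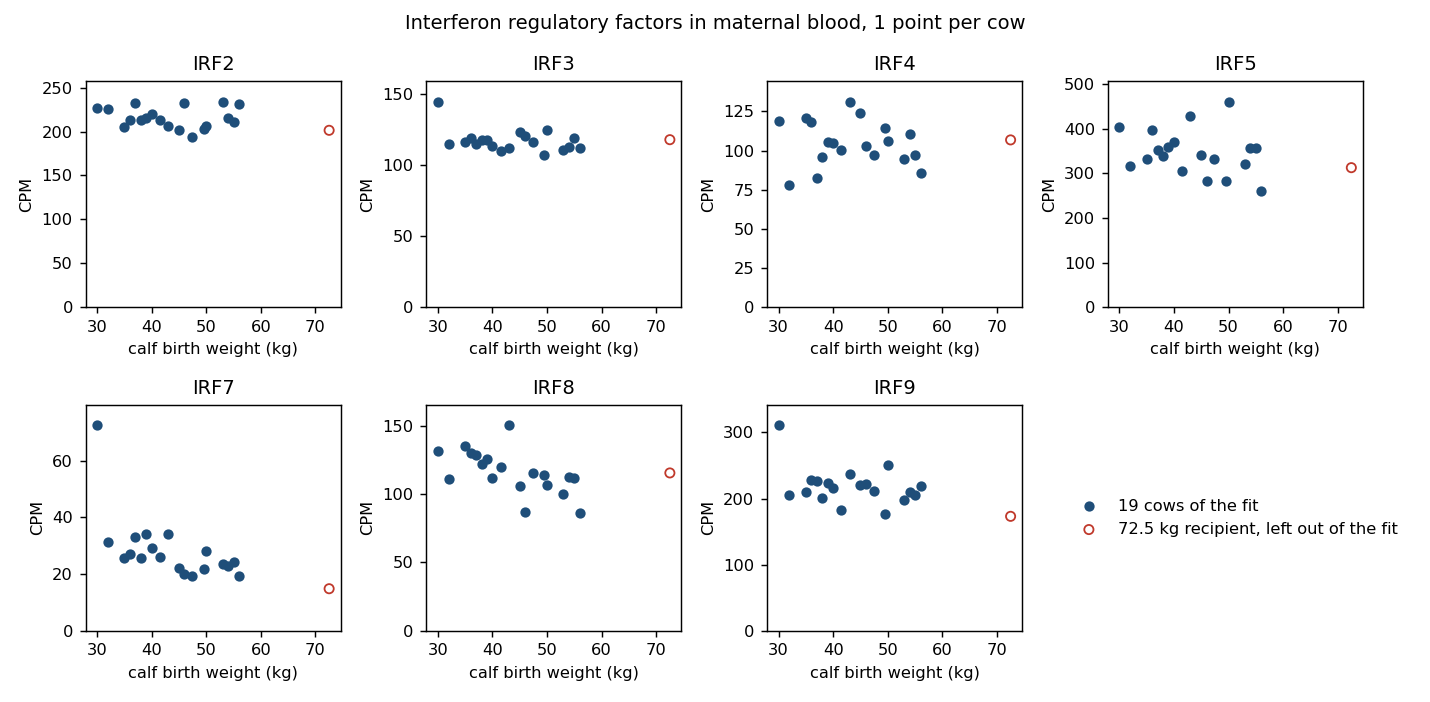
Level of 7 interferon regulatory factors in maternal blood (CPM, vertical axis from 0) against calf BW (kg), with 1 point per cow and an open red circle for the 72.5 kg recipient. IRF7 spans 14.8 to 72.5 CPM and is highest in the 30 kg recipient, whereas IRF2 spans 193 to 234 CPM with no visible slope.

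For a description of the same levels without a model, cows were set out as the 10 with calves of up to 43 kg and the 10 with calves of 45 kg or more. IRF7 ranged from 25.8 to 72.5 CPM (median 30.2) in cows with the lighter calves and from 14.8 to 28.3 CPM (median 21.8) in cows with the heavier calves. The ranges overlapped, but 6 of the 10 cows with lighter calves were above every cow with a heavier calf. IRF8 ranged from 111 to 150 CPM (median 127) and from 86.5 to 115 CPM (median 109), and 8 of the 10 cows with lighter calves were above all the others. For IRF9 the medians were 220 and 210 CPM, and only the 30 kg recipient was above every cow with a heavier calf. The medians of IRF3 were 116 and 117 CPM, those of IRF4 105 and 104 CPM, and those of IRF2 215 and 209 CPM. IRF5 had medians of 355 and 327 CPM, with its highest value in a cow with a heavier calf.

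The slope of each gene on calf BW was then tested with the quasi-likelihood test of edgeR in 19 cows, with p-values adjusted over all 16206 genes (FDR). All 7 members tested had a negative slope, as did 53.4% of all genes. None of the 7 had an FDR below 0.05 in edgeR, as was the case for 0% of all genes, and IRF7 alone had an FDR below 0.1 (0.315% of all genes). At an unadjusted p below 0.05 there were 2 members, IRF7 and IRF8, both with negative slopes, a direction and threshold that 7.08% of all genes met. DESeq2 called 1 member at an FDR below 0.05, namely IRF7, and 1.22% of all the genes it adjusted. In edgeR on all genes with any count IRF7 was likewise the 1 member called (FDR = 0.0424), beside 0.637% of all genes.

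The slope of IRF7 was -0.041 ± 0.0090 (SE) on the log2 scale per kg of calf BW, or -24.7% per 10 kg (edgeR p = 0.000174, FDR = 0.0976). DESeq2 gave an FDR of 0.00926. The size of this slope rested in part on a single animal, since it was -0.023 per kg without the 30 kg recipient (edgeR p = 0.00305, FDR = 0.181) and the DESeq2 FDR was then 0.0735. The unadjusted p of IRF7 stayed below 0.05 in each of the 19 fits that left out 1 cow. Over all 20 cows the Pearson correlation of IRF7 with BW was -0.73 (permutation p = 0.00063, adjusted over all genes p = 0.172) and the Spearman correlation was -0.71 (permutation p = 0.00077, adjusted p = 0.0904). Without the 72.5 kg and 30 kg recipients, the farthest from the median BW, r was -0.62.

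IRF8, which directs the development of monocytes and dendritic cells, had a slope of -0.0155 ± 0.0049 (SE) per kg, or -10.2% per 10 kg (edgeR p = 0.00438, FDR = 0.182, DESeq2 FDR = 0.0878). Without the 30 kg recipient it was -0.0158 per kg. Over the fits that left out 1 cow each, it lay between -0.0177 and -0.0125, with p below 0.05 in all 19. With all 20 cows the slope was -0.0086 per kg (p = 0.0331), so the 72.5 kg recipient moved it by more than any cow within the 19. The correlation of IRF8 with BW over 20 cows was -0.46 (permutation p = 0.0438, adjusted p = 0.363) by Pearson and -0.58 (permutation p = 0.0083, adjusted p = 0.174) by Spearman, and r was -0.57 without the 72.5 kg and 30 kg recipients.

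IRF9 did not pass the test in 19 cows (slope -0.0089 ± 0.0046 SE per kg, p = 0.0648, FDR = 0.401). Its slope was -0.0020 per kg (p = 0.623) without the 30 kg recipient. With all 20 cows it was -0.0097 per kg (p = 0.0133), and the Pearson correlation of -0.50 (permutation p = 0.0283, adjusted p = 0.32) was -0.091 without the 72.5 kg and 30 kg recipients. The Spearman correlation of IRF9 with BW was -0.36 (permutation p = 0.115, adjusted p = 0.449). For IRF9, then, the relation to BW rested on those 2 cows.

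IRF3 had a slope of -0.0053 ± 0.0027 (SE) per kg (p = 0.0634, FDR = 0.397), which was -0.0014 per kg (p = 0.56) without the 30 kg recipient. The slopes were -0.0066 ± 0.0058 (SE) for IRF5 (p = 0.265), -0.0035 ± 0.0058 for IRF4 (p = 0.551) and -0.0015 ± 0.0025 for IRF2 (p = 0.565). Over 20 cows the Pearson correlations of IRF2, IRF3, IRF4 and IRF5 with BW lay between -0.30 and -0.037, with permutation p between 0.204 and 0.879 and adjusted p between 0.588 and 0.962. The Spearman correlations of these 4 genes lay between -0.30 and -0.11, with permutation p between 0.199 and 0.639. None of the 7 members passed an adjusted p of 0.05 in its correlation with BW, as was the case for 0% of all 16206 genes.

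**Figure D2:**
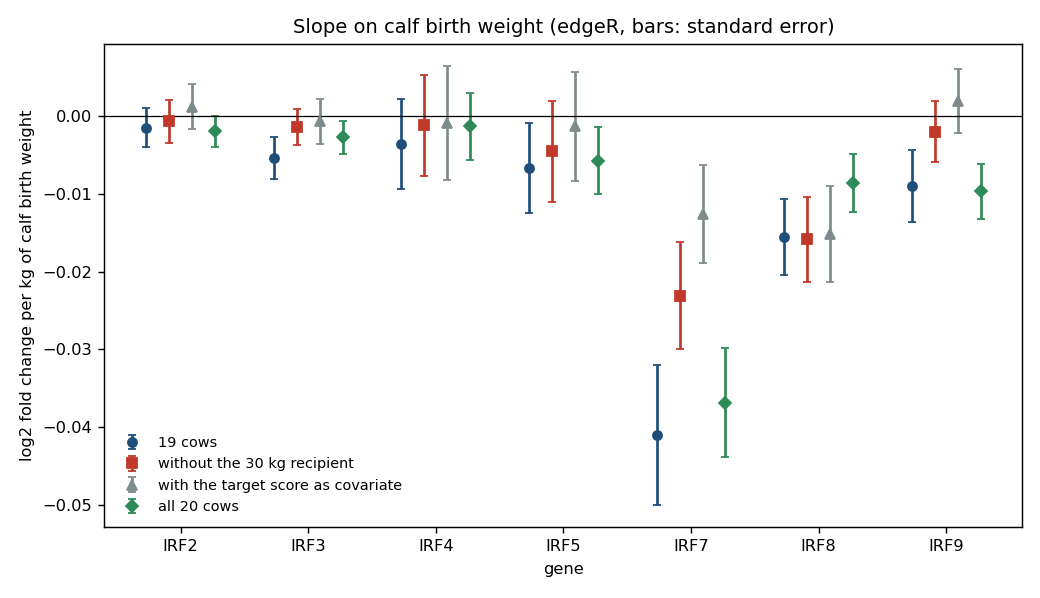
Slope of each member on calf BW (log2 fold change per kg, edgeR, bars show the SE) in 19 cows, without the 30 kg recipient, with the target score as a covariate and in all 20 cows. IRF7 moves from -0.041 to -0.023 without that cow, whereas IRF8 stays near -0.0155 and IRF9 goes to -0.0020.

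Whether the slope of IRF7 differed from those of its relatives was tested on the ratio of IRF7 to each of them within a cow, which does not depend on the scaling of the libraries. The log2 ratio of IRF7 to IRF2 had a slope of -0.035 ± 0.0095 (SE) per kg in 19 cows (r = -0.67, permutation p = 0.00049, adjusted p = 0.00275). For IRF7 to IRF3 it was -0.032 ± 0.0086 (adjusted permutation p = 0.00356), and for IRF7 to IRF9 -0.029 ± 0.0073 (adjusted permutation p = 0.00313). For IRF7 to IRF5 it was -0.030 ± 0.0082 (adjusted permutation p = 0.00252), and for IRF7 to IRF4 -0.034 ± 0.011 (adjusted permutation p = 0.00791). The Spearman correlations of these 5 ratios with BW lay between -0.70 and -0.54, with adjusted permutation p between 0.00936 and 0.0345, and without the 30 kg and 56 kg recipients the Pearson correlations lay between -0.65 and -0.51. All 5 ratios had negative slopes with adjusted p below 0.05, a result shared by the ratio of IRF7 to 70.8% of all genes, so it is not particular to these relatives.

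The ratio of IRF7 to IRF8 had a slope of -0.021 ± 0.0096 (SE) per kg (r = -0.48, permutation p = 0.0284, adjusted p = 0.0413). Its Spearman correlation was -0.30 (permutation p = 0.212, adjusted p = 0.259), and r was -0.29 without the 30 kg and 56 kg recipients. Without the 30 kg recipient alone, the slope of this ratio was -0.0071 per kg (r = -0.26, permutation p = 0.294). A difference in slope between IRF7 and IRF8 therefore depended on that cow. The ratio of IRF7 to IRF4 also lost its adjusted p below 0.05 without her (slope -0.023 per kg, adjusted permutation p = 0.0738). The other 4 ratios kept theirs, at 0.037 to 0.0431. The share of all genes whose ratio did so without her was not computed, so this is not read as particular to these relatives. The slopes of these 4 ratios without her were -0.022 for IRF2, -0.022 for IRF3, -0.018 for IRF5 and -0.021 for IRF9.

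IRF7 was next compared with its relatives across all 20 cows by correlation of log2 CPM, as 6 relations with p-values adjusted over the correlations of IRF7 with the other 16205 genes. None of the 6 passed an adjusted p of 0.05, which 0.444% of all genes did. The highest correlation was with IRF9 (Pearson r = 0.77, permutation p = 0.00053, adjusted p = 0.074, Spearman rho = 0.54, permutation p = 0.0148, adjusted p = 0.162). It was higher than that of 99.7% of genes, but r was 0.35 without the 30 kg and 72.5 kg recipients, the farthest from the median of IRF7. IRF3 had r = 0.57 (permutation p = 0.0314, adjusted p = 0.335), but rho was 0.077 (permutation p = 0.749) and r was -0.049 without the 30 kg recipient. The relation of IRF7 with IRF3 thus rested on 1 cow.

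For IRF5 and IRF8, in contrast, the correlation with IRF7 did not rest on that cow. For IRF5, r was 0.58 (permutation p = 0.00768, adjusted p = 0.211), rho was 0.67 (permutation p = 0.00152, adjusted p = 0.0706) and r was 0.61 without the 2 cows farthest from the median of IRF7. For IRF8, r was 0.52 (permutation p = 0.0204, adjusted p = 0.30), rho was 0.52 (permutation p = 0.0193) and r was 0.67 without those 2 cows. IRF2 had r = 0.33 (permutation p = 0.157) and rho = 0.35 (permutation p = 0.128), with r = 0.12 without the 2 cows. IRF4 had r = 0.15 (permutation p = 0.524) and rho = 0.084 (permutation p = 0.722), with r = 0.0028 without them.

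Among the other pairs of members, IRF3 with IRF9 had the highest correlation (r = 0.77, and 0.51 without the 30 kg recipient). IRF5 with IRF9 had r = 0.63 in both sets of cows, and IRF5 with IRF8 had r = 0.58 and 0.56. IRF8 and IRF9 had r = 0.20 and 0.064, although each had a positive r with IRF7. Without the 56 kg and 46 kg recipients, the farthest from the median of IRF8, IRF5 with IRF8 had r = 0.32. It was 0.67 without the 50 kg and 56 kg recipients, the farthest from the median of IRF5. The 3 negative correlations over 20 cows all involved IRF2, at -0.52 with IRF4, -0.36 with IRF8 and -0.21 with IRF5. These values are a description over 20 cows, in which genes share the library and its depth, and no p is given for them.

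**Figure D3:**
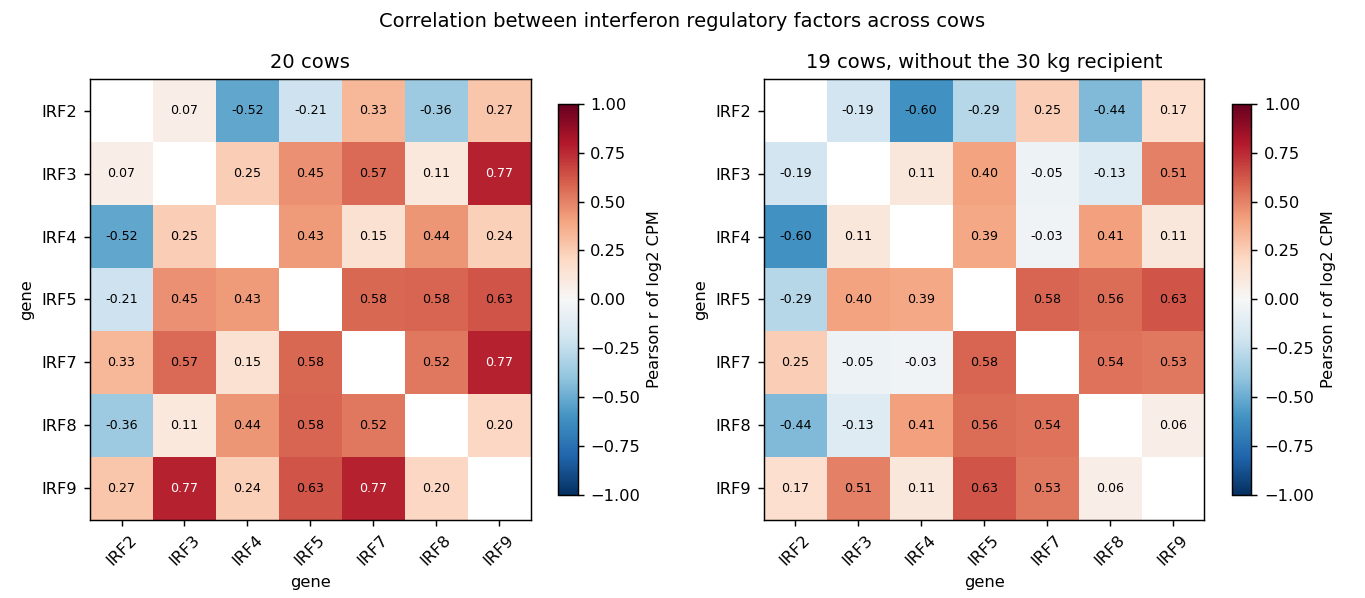
Pearson correlation of log2 CPM between members over 20 cows (left) and without the 30 kg recipient (right), with red for positive and blue for negative values. IRF7 with IRF9 goes from 0.77 to 0.53 and IRF7 with IRF3 from 0.57 to -0.05, whereas IRF7 with IRF5 is 0.58 in both.

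The genes whose levels were most like IRF7 across the 20 cows were UBA7, the enzyme that activates the ubiquitin-like protein ISG15 (r = 0.93), IFIT5, an RNA-binding interferon-induced protein (r = 0.93), and XAF1, a pro-apoptotic factor (r = 0.92). ZNFX1, an RNA helicase that senses viral RNA (r = 0.92), ADAR, an RNA-editing enzyme (r = 0.91), STOML1 (r = 0.91) and PRPSAP1 (r = 0.91) followed. ISG20, an exonuclease (r = 0.90), TRANK1 (r = 0.89) and FAM3B (r = 0.89) completed the 10 highest named genes, with 3 unnamed identifiers among them. The permutation p was between 1e-05, the smallest that 100000 resamples can give, and 3e-05, and the adjusted p was between 0.018 and 0.0224. Without the 30 kg recipient the 10 correlations lay between 0.74 and 0.87. The lowest correlations were those of AP3M1, a subunit of a vesicle adaptor complex (r = -0.83, permutation p = 2e-05), CNGA1, a cyclic nucleotide-gated channel (r = -0.82, permutation p = 8e-05), and BLM, a DNA helicase (r = -0.80, permutation p = 0.00019).

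Interferon-stimulated targets were then examined as a list of 26 genes, of which 22 were tested. The list was chosen with earlier results of these data known, so its counts are a description and not an independent test. All 22 had a positive Pearson correlation with IRF7 over 20 cows, from 0.47 (OAS1X) to 0.93 (UBA7) with a median of 0.84, against a median of -0.0034 over all genes, and 12 of the 22 passed an adjusted permutation p of 0.05 (0.333% of all genes did so with a positive r). Spearman rho was 0.87 for UBA7 but 0.33 for HERC6 and 0.21 for PARP9, and IFI44L (r = 0.50) had no correlation by rank. The target score had r = 0.90 with IRF7 (0.77 without the 30 kg recipient) and r = 0.78 with IRF9 (0.53 without her). Its correlation was 0.63 with IRF3, 0.44 with IRF2, 0.39 with IRF5, 0.34 with IRF8 and 0.15 with IRF4. In the other 19 cows these values were -0.078 for IRF3, 0.46 for IRF2, 0.30 for IRF5, 0.28 for IRF8 and -0.074 for IRF4. Of the 7 members, IRF7 had the highest correlation with the score in both sets of cows, whereas that of IRF3 rested on 1 cow. The score itself had r = -0.60 with BW, both over 20 cows and without the 30 kg recipient, and both sets held the 72.5 kg recipient. The latter had the lowest score (-1.09), and r was -0.56 when that cow alone was left out. The value without both cows was not computed.

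**Figure D4:**
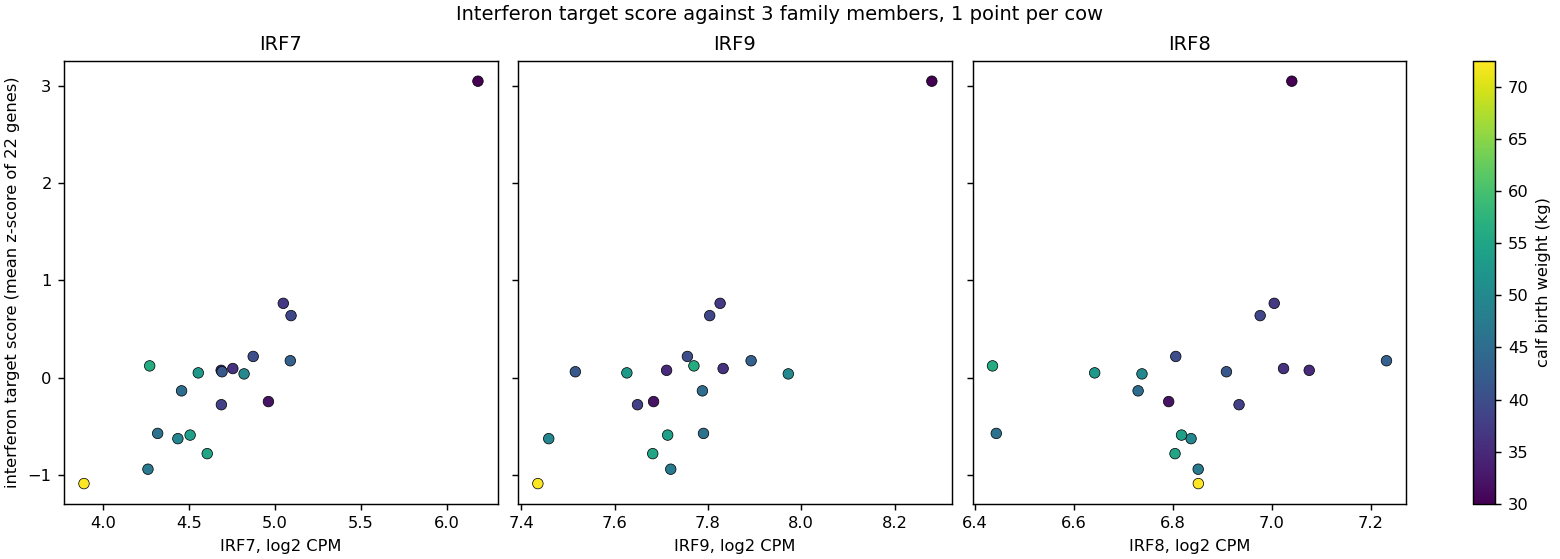
Mean z-score of 22 interferon-stimulated genes against the log2 CPM of IRF7, IRF9 and IRF8, with 1 point per cow coloured by calf BW (kg). The score follows IRF7 (r = 0.90) and IRF9 (r = 0.78) more than IRF8 (r = 0.34), and the 30 kg recipient lies apart at a score of 3.05.

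On BW, the slopes of the 22 tested targets were all negative in 19 cows, and their median was -0.038 per kg against -0.00072 over all genes. At an unadjusted edgeR p below 0.05 there were 19 of 22, beside 7.08% of all genes in that direction, and 0 had an FDR below 0.05. DESeq2 gave 7 of 22 with an FDR below 0.05, beside 1.22% of all genes. Because the list was chosen with earlier results of these data known, an excess over these shares is not independent support. The lowest p-values were those of IFI27 (slope -0.076 ± 0.015 SE per kg, FDR = 0.0976), IFI6 (-0.059 ± 0.012, FDR = 0.0976) and MX2, a dynamin-like antiviral GTPase (-0.089 ± 0.019, FDR = 0.0976). OAS2, which makes the oligoadenylates that activate RNase L, had the steepest slope of the list (-0.092 ± 0.024 per kg, edgeR p = 0.000991). Once the 30 kg recipient was left out, the list had a median of -0.016 per kg. Of its 22 slopes 20 were then negative (53.2% of all genes) and 9 were negative with p below 0.05 (6.81% of all genes). That count included IFI27, IFI6, MX2, OAS1X, OAS1Y, UBE2L6, UBA7, ISG20 and IFIT5, whereas OAS2, ISG15, RSAD2, MX1, CMPK2, IFI44, XAF1, DHX58, USP18 and DTX3L, which had p below 0.05 with her, had p between 0.0788 and 0.535. The slope was nearer to 0 without her for 21 of the 22 targets and steeper for OAS1X (-0.052 and -0.058 per kg).

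With the target score as a covariate, the slope of IRF7 on BW was -0.013 ± 0.0063 (SE) per kg (edgeR p = 0.0611, FDR = 0.466), and with the 30 kg recipient also left out it was -0.014 (p = 0.0401). The slope of IRF8 with the covariate in 19 cows was -0.015 per kg (p = 0.0228, FDR = 0.369), close to its value without the covariate. IRF8 was then the 1 member with a negative slope and p below 0.05, beside 5.22% of all genes. The slope of IRF9 in that fit was 0.0020 per kg (p = 0.628). With the 30 kg recipient also left out, IRF8 had a slope of -0.015 per kg (p = 0.0315, FDR = 0.443). Both IRF7 and IRF8 then had a negative slope with p below 0.05, as did 761 of all 16206 genes. At equal target score the slope of IRF7 in 19 cows was closer to 0 than its -0.041 per kg without the covariate. Since IRF7 had r = 0.90 with the score over 20 cows, a smaller slope was likely in advance. The slopes of IRF7 and IRF8 lay within 1 SE of each other, and their difference was not tested in this fit.

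The genes that activate the family were less uniform than its targets. Of 22 sensors, adaptors and kinases upstream of IRF3, IRF5 and IRF7, 17 had a slope below 0 (53.4% of all genes), and the median was -0.0038 per kg. At an unadjusted p below 0.05 there were 3 negative and 1 positive, against 7.08% and 6.78% of all genes, and 0 had an FDR below 0.05 in edgeR or DESeq2. Without the 30 kg recipient 15 of the 22 slopes were negative. At an unadjusted edgeR p below 0.05 there were then 1 negative and 1 positive, beside 1104 and 1085 of all 16206 genes. RIGI, the sensor of short viral RNA, had a slope of -0.030 ± 0.010 (SE) per kg (p = 0.00926), which was -0.011 (p = 0.243) without the 30 kg recipient. The slope was -0.017 (p = 0.0358) for the adaptor TICAM2 and -0.016 (p = 0.0382) for the DNA sensor CGAS. Without the 30 kg recipient their edgeR p was 0.0627 and 0.0965. TBK1, the kinase of IRF3 and IRF7, had the opposite sign (0.0093 per kg, p = 0.0256). The correlation of TBK1 with IRF7 was negative (r = -0.55, permutation p = 0.0171, adjusted p = 0.277, Spearman rho = -0.61).

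Of the 6 genes of interferon receptor signalling to IRF9, 4 had a negative slope (53.4% of all genes) and the median was -0.0023 per kg. Without the 30 kg recipient 3 were negative and the median was 0.0015 per kg. The 2 with an unadjusted p below 0.05 were both positive (6.78% of all genes), namely the receptor kinases TYK2 (0.011 ± 0.0031 SE per kg, p = 0.00274, DESeq2 FDR = 0.0713) and JAK1 (0.0058 ± 0.0023, p = 0.0182). The mean z-score of the 6 genes had r = 0.78 with IRF2 and r = 0.33 with IRF9. Among 7 DNA-binding partners of IRF4 and IRF8 the slopes had a median of -0.0015 per kg, and BATF, which pairs with IRF4 in lymphocytes, was the 1 with p below 0.05 (-0.0091, p = 0.048, FDR = 0.355). SPIB (-0.0056 per kg) and IKZF1 (0.0041 per kg) had the next largest slopes. The 3 corepressors that bind IRF2 (IRF2BP1, IRF2BP2 and IRF2BPL) had negative slopes (53.4% of all genes), none with p below 0.05 (lowest p = 0.0696), and their mean z-score had r = 0.80 with IRF5 and r = -0.17 with IRF2.

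**Figure D5:**
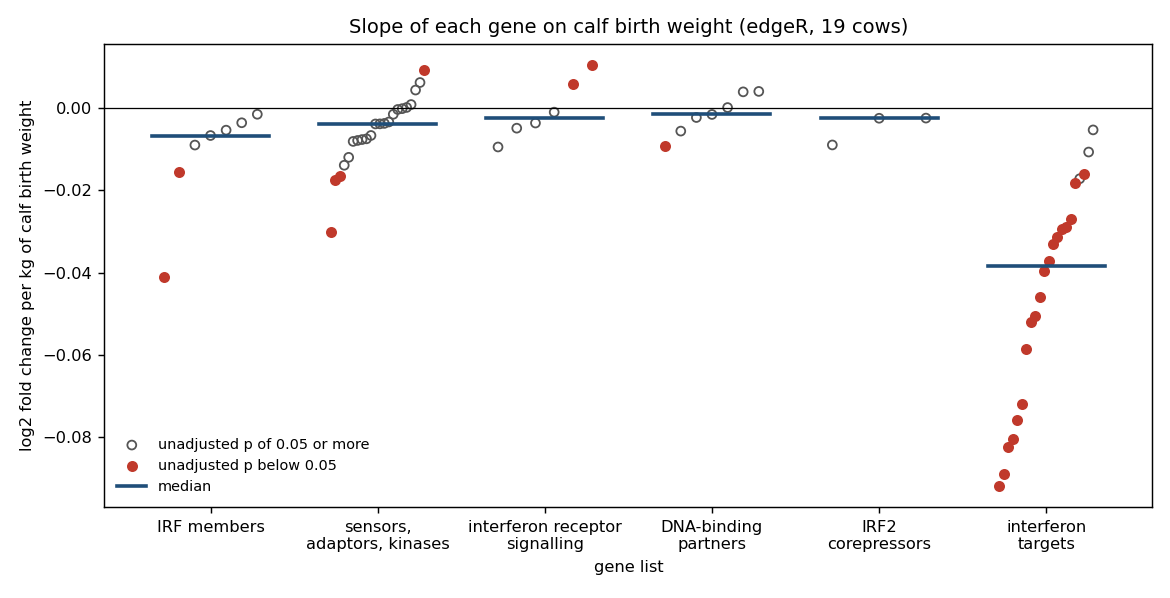
Slope on calf BW (log2 fold change per kg, edgeR, 19 cows) of each tested gene in 6 lists, with filled red points for an unadjusted p below 0.05 and a blue bar for the median of the list. The 22 interferon targets have a median of -0.038, whereas the medians of the other 4 pathway lists lie between -0.0038 and -0.0015.

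The genes most like the other members differed from member to member. For IRF9 they were IFI35, an interferon-induced protein (r = 0.93), PARP10, an ADP-ribosyltransferase (r = 0.92), and KAT2A, a histone acetyltransferase (r = 0.91), each with an adjusted permutation p of 0.0125. For IRF5 they were UNC93B1, the chaperone of endosomal Toll-like receptors (r = 0.94), NFKBIE, an inhibitor of NF-kB (r = 0.92), and GRN, the lysosomal protein progranulin (r = 0.90), each with an adjusted permutation p of 0.00216. A correlation with IRF5 passed an adjusted p of 0.05 for 9.58% of all genes, more than for any other member. For IRF8 they were ZFP36L1, an RNA-binding decay factor (r = 0.87), CD74, the invariant chain of class II antigen presentation (r = 0.84), and TFEB, a regulator of lysosomal genes (r = 0.82), with adjusted permutation p of 0.0060 to 0.00917 and 2 unnamed identifiers among them, and 3.33% of all genes passed. For IRF9 that share was 1.49%.

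No gene passed an adjusted permutation p of 0.05 with IRF2, IRF3 or IRF4 (0% of all genes for each). The highest correlations with IRF2 were those of MCL1, an inhibitor of apoptosis (r = 0.83), TARS1, a tRNA synthetase (r = 0.81), and PARP9 (r = 0.80), with an adjusted permutation p of 0.108. With IRF4 they were those of TCF3, a transcription factor of B cell development (r = 0.78), TMEM145 (r = 0.78) and TXNDC5, a disulfide isomerase of the endoplasmic reticulum (r = 0.77), with adjusted permutation p of 0.146 to 0.158, and 1 unnamed identifier had a higher r. With IRF3 they were those of OLFM1 (r = 0.88), SLC22A17 (r = 0.81) and MAPKBP1 (r = 0.80), with an adjusted permutation p of 0.351. The value for OLFM1 was 0.57 without the 2 cows farthest from the median of IRF3.

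Markers of blood cells were set beside the members as mean z-scores, with r as a description over 20 cows. The monocyte score (6 genes) had r = 0.65 with IRF5, 0.64 with IRF8 and 0.30 with IRF7, and without the 30 kg recipient these were 0.71, 0.68 and 0.55. Its r with BW was -0.26, all 6 markers had a negative slope (53.4% of all genes), 0 of them with p below 0.05, and the summed level ranged from 614 to 1334 CPM. With this score as a covariate the slope of IRF8 was -0.0116 per kg (edgeR p = 0.014), that of IRF7 was -0.040 and that of IRF5 was -0.0021 (p = 0.668), against -0.0066 without it. IL5RA, the 1 eosinophil marker of 5 that was tested, had r = -0.65 with IRF8 and -0.28 with IRF7 (-0.68 and -0.44 without the 30 kg recipient), a level of 20.2 to 200 CPM and a positive slope on BW (0.053 ± 0.019 SE per kg, p = 0.0102, FDR = 0.216). Its part in the slope of IRF8 was not tested. The 56 kg and 46 kg recipients had the lowest monocyte scores (-2.42 and -1.77) and the lowest IRF8 levels (86.5 and 87.0 CPM). They also had the highest z-scores of IL5RA (2.18 and 1.67). The correlations of these markers with the members were not computed without those 2 cows.

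The B cell score (7 genes, 914 to 1645 CPM) had r = 0.53 with IRF4, 0.25 with IRF8 and -0.0084 with BW, and the plasma cell score (5 genes, 189 to 411 CPM) had r = 0.40 with IRF4. With the B cell score as a covariate the slope of IRF4 was -0.00095 per kg (edgeR p = 0.858), against -0.0035 without it. The T cell score (6 genes, 544 to 874 CPM) had r = -0.52 with IRF4 and -0.44 with IRF5, and the natural killer cell score (5 genes, 126 to 237 CPM) had r = -0.42 with both IRF4 and IRF8. The neutrophil score (5 genes, 2187 to 3778 CPM) had r = 0.37 with IRF7 and -0.17 with BW, and with it as a covariate the slope of IRF7 was -0.0405 per kg. The dendritic cell score (5 of 6 genes tested, 150 to 189 CPM) had r = 0.30 with IRF8, 0.15 with IRF7 and -0.15 with BW. The erythroid score (54 to 1095 CPM) had r between -0.00066 and 0.36 with the members and -0.37 with BW, and the platelet score (218 to 816 CPM) had r between -0.20 and 0.33 with the members and -0.021 with BW. Across the 10 marker lists, the genes with an unadjusted edgeR p below 0.05 were IL5RA, the natural killer receptor NCR1 (0.023 per kg, p = 0.0134), the platelet integrin ITGA2B (0.021 per kg, p = 0.00647) and the globin HBB (-0.072 per kg, p = 0.0322), and 0 had an FDR below 0.05 in edgeR or DESeq2. Of all genes, 7.08% had a negative and 6.78% a positive slope at that unadjusted threshold. Without the 30 kg recipient NCR1 had an edgeR p of 0.0661, whereas the erythroid gene ALAS2 passed (p = 0.0327). Of these lists, those of the plasma cell, erythroid, platelet, T cell, natural killer, dendritic and eosinophil genes were not used as covariates, and their part in the slopes was not tested.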

How the data were processed

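Whole-blood RNA of 20 cows was sequenced as paired reads, 1 library each. The study names a Truseq-stranded mRNA kit and the labels a SMARTer Stranded kit. The authors checked reads with FastQC (0.11.9), trimmed them with Trimmomatic, aligned them with STAR (2.7.0b) and counted them with featureCounts of Subread (2.0.3). They deposited raw counts per Entrez identifier, without normalization. The strand setting and the handling of reads that fit several genes are not given in the sources used here, so overlapping genes and gene families are uncertain. Symbols came from an NCBI cattle table for the ARS-UCD2.0 assembly, another build than that of the alignment, which matched all 37063 identifiers. No coordinates or sequences are printed. No column was left unused.

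A gene was tested when 5 or more cows had 10 or more counts. Each was tested for a slope on calf BW with the quasi-likelihood test of edgeR 4.0.16 (TMM normalization, R 4.3.3) in 19 cows, with Benjamini-Hochberg adjustment over all genes. CPM used TMM-scaled library sizes over the tested genes, and log2 CPM used a prior count of 2. Correlations and ratios used two-sided permutation tests with 100000 resamples and were adjusted over all genes. A list score was the mean z-score of log2 CPM. The alternatives tried were the Wald test of DESeq2 1.42.0, voom in limma 3.58.1, looser and stricter filters, other size factors, a prior count of 0.5, all 20 cows, the rank of BW, covariates (target score and markers of B cells, monocytes and neutrophils) and the omission of each cow in turn. DESeq2 with each cow left out, and the target score with the 30 kg recipient left out, were added after seeing the data. The steps were tested on simulated data. Other software was numpy 2.4.6 and scipy 1.17.1 in Python 3.11.15, with tables in pandas 2.3.3 and plots in matplotlib 3.10.9.

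The members and lists were chosen with earlier results of these data known. Named genes were the members, listed genes with an unadjusted p below 0.05 or among the 3 largest slopes of their list, the 10 highest and 3 lowest correlations with IRF7 and the 3 highest with each other member, with unnamed identifiers counted only. One gene that the rule would name is not reported here. The blood cell markers and the neighbours RAD50, IL5 and RNF31 were named after their values were seen. The targets IFIT1 and BST2, the neutrophil marker FPR1 and the eosinophil markers EPX and SIGLEC14 were not matched and are not analysed here.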

Additional observations from a re-analysis of the deposited data

How the results depend on the processing

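IRF3 and IRF5 kept their direction and their side of the FDR threshold of 0.05 under every alternative run, and IRF8 kept its direction and passed that threshold in 2 DESeq2 fits that left out 1 cow. Those fits left out the 32 kg recipient (428 of 15882 genes called) and the 43 kg recipient (199 of 14990). IRF7 had a slope of -0.041 per kg with an FDR below 0.05 under DESeq2, and of -0.040 (FDR = 0.0424) in edgeR on all genes with any count, so that 1 member was called under either and 0 in edgeR on the filtered genes. Voom in limma gave IRF7 a slope of -0.038 per kg (p = 0.000616, FDR = 0.17), and 0 of all genes had an FDR below 0.1 there. With 1 cow left out, the slope of IRF7 lay between -0.044 and -0.023 in edgeR and between -0.0441 and -0.0226 in DESeq2. The number of members with an FDR below 0.05 was 0 in each edgeR fit and 0 to 2 in DESeq2. Among all genes it was 0 to 37 of 16206 in edgeR, and from 33 of 17220 to 428 of 15882 in DESeq2. The number of members with p below 0.05 was 2 to 3 in edgeR and 2 to 4 in DESeq2. Among all genes it was 1608 to 2479 of 16206 in edgeR, and from 1805 of 23023 to 2701 of 23025 in DESeq2. The target score as a covariate left 1 member with p below 0.05, IRF8, and both IRF7 and IRF8 when the 30 kg recipient was also left out. With this covariate the slope reversed for IRF2 (0.0013 per kg, and 0.0015 with the 30 kg recipient also left out) and IRF9 (0.0020 and 0.0014). The slope of IRF4 lay between -0.0079 and 0.000033 in the fits with 1 cow left out and was positive in 1 of them, by DESeq2. The ratio of IRF7 to IRF8 had a slope of -0.028 per rank of BW (adjusted permutation p = 0.0641). With 1 cow left out its slope lay between -0.0253 and -0.0071 and the adjusted p was 0.05 or more in 8 of 19 cases, while that of IRF7 to IRF4 lay between -0.0391 and -0.0227. The correlation of IRF7 with IRF3 lay between -0.049 and 0.64 and that with IRF4 between -0.033 and 0.25, both negative without the 30 kg recipient. Where a value is given without that cow, the cause of the change was not tested. No paired analysis was possible because there was 1 group. IRF7 had the fewest counts of the 7 members tested (445 to 1798 per cow).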
